A study of Rattus norvegicus with 7 samples.

Results

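The mitochondrial ribosomal protein genes were taken as all probe sets whose platform gene symbol starts with Mrpl or Mrps followed by a digit. The rule found 97 probe sets of 73 genes among the 31042 non-control probe sets of the array. Of these, 58 probe sets of 46 genes bear large-subunit symbols (Mrpl) and 39 probe sets of 27 genes bear small-subunit symbols (Mrps). Tests ran on the 18625 probe sets in the upper 60% of mean log2 signal, and 89 of the 97 were among them. These 89 cover each of the 73 genes, because the 8 probe sets left out all belong to genes with another, brighter probe set.

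The study asked what lowering Adamts16, a secreted metalloprotease gene that its title ties to inherited hypertension, does to RNA levels in NRK-52E, an established rat kidney epithelial cell line. The cultures were transfected with siRNA 3488 against Adamts16 (2 arrays), with siRNA 2600 against Adamts16 (2 arrays) or with a scrambled siRNA as control (3 arrays), 1 array per independent culture. Every culture, control included, received 100 pmol of siRNA duplex per ml of medium by lipofection and was harvested after 48 h. No array therefore shows cells without transfection. The sample records give 10% serum and 20% confluence for every culture. The cells are 1 line on a plate and carry no inherited allele under study.

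Mitochondria make a small set of respiratory-chain proteins from their own DNA, on ribosomes of their own. The RNAs of these ribosomes come from mitochondrial DNA, while all of their proteins are encoded in the nucleus, made in the cytosol and imported. Some of the proteins descend from bacterial ribosomal proteins and others were gained in the mitochondrial lineage. The large subunit forms peptide bonds and the small subunit reads the mRNA. Kidney tubule cells are known for their high content of mitochondria.

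The antisense strands of the 3 siRNAs are shown because the duplex given is what differed between the groups. They are written 5′ to 3′ without the overhang, with the seed (bases 2 to 8) in capitals:
siRNA 3488: tTTCCGGAgacgtacttct
siRNA 2600: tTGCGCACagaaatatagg
scrambled control: aTTACCGAgcacattggagg
No seed is shared between them.

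Each array carried signals in arbitrary units with the same trimmed mean of 500, and the median signal was 126 to 139. The signal of a probe set depends on its probes as well as on its RNA, so signals were compared between arrays and not between probe sets. Adamts16 itself read 12.1 and 40.4 under siRNA 3488, 21.4 and 2.42 under siRNA 2600, against 8.68, 7.18 and 18.9 under the scrambled siRNA. Its mean lay at percentile 15.6 of all probe sets, under the level tested, so the knockdown could not be checked on the array. Of the 15 kidney epithelium markers, 5 were bright enough to test. Krt8 read 5698 to 7147 and Tjp1 5901 to 6499.5 over the 7 arrays, while Cdh1, Epcam, Krt18 and Pax2 read at most 36.2. The summed signal of the 10 fibroblast markers, led by Col3a1 and Mfap5, was 51452 to 56976 under siRNA 3488, 39962 to 43957 under siRNA 2600 and 38071 to 41012 in control cultures. Of its 6 markers bright enough to test, Col1a1, Col1a2, Col3a1 and Mfap5 were above all control arrays on both siRNA 3488 arrays. Fbln1 and Pdgfrb overlapped the control. Of all probe sets tested, 19.2% lay above all control arrays in this way. The kidney epithelium markers Krt8, Krt19 and Aqp1 did so too at their brightest probe sets. There Lrp2 overlapped the control and Tjp1 lay below it. Of the tested macrophage markers, Cd68 lay above the control and Cd14 overlapped it. The summed signal of the kidney epithelium markers was 13596 to 14155 under siRNA 3488, 12600 to 12834 under siRNA 2600 and 12567 to 13593 in control cultures. Added hybridization control RNAs (18 probe sets) had a mean log2 shift from the control arrays of 0.33 and 0.70 under siRNA 3488. Under siRNA 2600 it was -0.091 and 0.13. The part of these shifts in the results below was not tested. In RNA from whole cultures, fewer cells of a kind and less RNA per cell cannot be told apart.

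With siRNA 3488, 16 of the 89 tested mitochondrial ribosomal protein probe sets rose and 2 fell against the scrambled control. The 16 stand for 14 genes, since 3 of them measure Mrpl51. Of all 18625 probe sets tested, 6.89% rose and 8.74% fell. A probe set was called where limma's adjusted p was under 0.05 after Benjamini-Hochberg adjustment over all probe sets tested. Apart from Mrpl51 the rises were small, with log2 changes of 0.25 to 0.43. The adjusted p of the 18 calls ran from 0.00703 to 0.0453. The median change over the 89 probe sets was 0.11 on the log2 scale, against -0.062 over all probe sets tested. Of the 89, 66 lay above 0 (74.2%), against 41.3% of all. Both siRNA 3488 arrays lay above all 3 control arrays for 39 of the 89, against 19.2% of all, and below them for 10, against 31.1% of all.

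The count depended on single arrays and on the model of the spread. None of the 18 calls held without siRNA 3488 replicate 2, a fit with 1 siRNA 3488 array. On that array, replicate 1, the median member shift from the control mean was 0.072. Without control replicate 1 there were 5 calls, without control replicate 2 there were 7 and without control replicate 3 there were 11. When limma's spread was not allowed to follow signal, no member was called, with 27 at an unadjusted p under 0.05. The share of all probe sets was not counted there. In the main fit 36 of the 89 and 5934 of all 18625 had such a p. Other array scalings moved the balance of directions as well. Quantile normalization called 10 rises and 0 falls, cyclic loess 11 and 1, and median centring 24 and 0.

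By subunit the counts were as follows. In the large subunit 11 of 56 tested probe sets rose and 1 fell, with a median of 0.12. In the small subunit 5 of 33 rose and 1 fell, with a median of 0.086. A difference between the subunits was not tested. Mrps18a and Mrps30 bear small-subunit symbols but sit in the large subunit of the assembled ribosome. Neither was called, and moving them left 11 rises and 1 fall of 58, and 5 rises and 1 fall of 31. By descent, 11 of the 46 probe sets of members with a bacterial homologue rose and 2 fell, with a median of 0.098. Of the 43 probe sets of mitochondria-specific members 5 rose and 0 fell, with a median of 0.12, and 3 of those 5 measure Mrpl51. Mrps18a and Mrps18b, which are also related to bacterial S18, stand among the mitochondria-specific probe sets in this count, and neither was called.

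**Figure D1:**
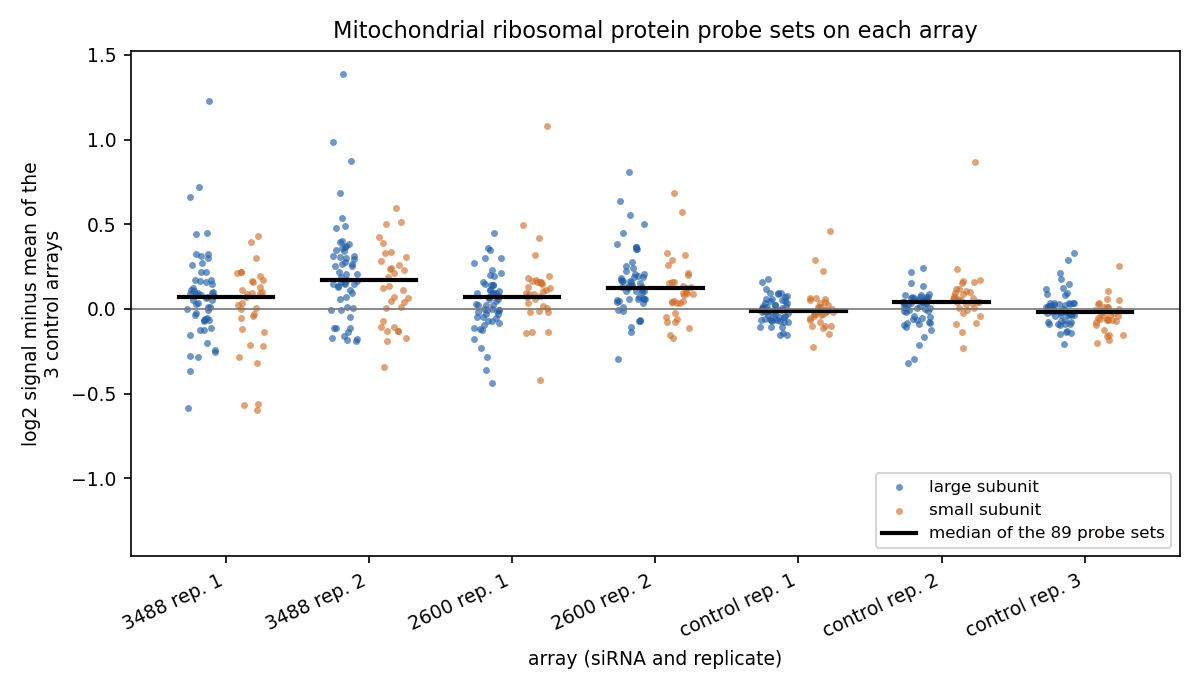
Log2 signal of each of the 89 tested probe sets minus its mean over the 3 control arrays (y axis), by array (x axis), with large-subunit probe sets in blue and small-subunit probe sets in orange. The black bars are medians over the 89, at 0.072 and 0.17 for siRNA 3488, 0.071 and 0.13 for siRNA 2600 and -0.010, 0.040 and -0.021 for the control.

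The plot of shifts by array shows where each culture stood. The median member shift was 0.072 and 0.17 under siRNA 3488, 0.071 and 0.13 under siRNA 2600, against -0.010, 0.040 and -0.021 in control cultures. With each siRNA, replicate 2 was the higher one. Above the control mean lay 57 and 68 of the 89 under siRNA 3488, 59 and 73 under siRNA 2600, against 38, 62 and 36 in the control cultures themselves. Large-subunit probe sets had a mean shift of 0.085 and 0.22 with siRNA 3488 and of 0.042 and 0.16 with siRNA 2600. Small-subunit probe sets had 0.0020 and 0.13 with siRNA 3488 and 0.12 and 0.11 with siRNA 2600. The actin 3′ to 5′ signal ratio, a sign of RNA quality, was 1.96 and 1.94 under siRNA 3488, 1.83 and 1.81 under siRNA 2600, against 1.74, 1.76 and 1.79 in control cultures, so no group overlapped another. The same ratio for Gapdh was 0.941 and 0.929 under siRNA 3488, 1.04 and 0.929 under siRNA 2600, against 0.948, 0.908 and 0.926 in control cultures, where the groups overlapped. The part of RNA quality in the member shifts was not tested. Control replicate 2 stood higher than the other control arrays for the small subunit, at 0.072 against 0.0039 and -0.076.

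Mrpl51, a mitochondria-specific protein of the large subunit, gave the largest change. Probe set 1379874_at read 829.9 and 929.6 in cultures given siRNA 3488, 262 and 621 in those given siRNA 2600, against 357, 289 and 433 in control cultures. Both siRNA 3488 arrays lay above every control array, while with siRNA 2600 replicate 1 lay below the control arrays and replicate 2 above them. The change with siRNA 3488 was 1.31 ± 0.29 on the log2 scale (SE, adjusted p = 0.0166 by limma). Probe set 1376930_at read 1559 and 1874 under siRNA 3488, 941 and 1388 under siRNA 2600, against 1009, 866 and 967 under the scrambled siRNA, a change of 0.85 ± 0.15 with siRNA 3488 (limma adjusted p = 0.00703). The last of the 3, 1390509_a_at, read 2217 and 2571 under siRNA 3488, 1239 and 2183 under siRNA 2600, against 1396, 1123 and 1765 under the scrambled siRNA, a change of 0.77 ± 0.22 (limma adjusted p = 0.0442). All 3 share the pattern of both siRNA 3488 arrays high and 1 siRNA 2600 array high.

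A further Mrpl51 probe set did not share it. 1390188_at read 403 and 483 under siRNA 3488, 513 and 533 under siRNA 2600, against 359.6, 389.8 and 381 under the scrambled siRNA. Here both siRNAs lay above the control, siRNA 2600 the higher, with changes of 0.23 for siRNA 3488 (limma adjusted p = 0.195) and 0.47 for siRNA 2600 (limma adjusted p = 0.0876). Neither was called, so the size of the Mrpl51 change depended on the probe set.

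Mrpl33 and Mrpl53 had the next largest called rises. Mrpl34 and Mrpl55 changed by 0.42 and 0.41 without a call (limma adjusted p = 0.0614 and 0.0716). Mrpl33, the homologue of bacterial protein L33, read 1845 and 2137 in cultures given siRNA 3488, 1418 and 1643 in those given siRNA 2600, against 1475, 1486 and 1456 in control cultures. Both siRNA 3488 arrays stood above all others, and the siRNA 2600 arrays lay on either side of the control arrays. Its change was 0.43 ± 0.087 (limma adjusted p = 0.0112). Mrpl53, a mitochondria-specific protein, read 2733 and 3088 under siRNA 3488, 2148 and 2284 under siRNA 2600, against 2171, 2329 and 2095 under the scrambled siRNA. The groups divided in the same way, siRNA 3488 above and the other 5 arrays together, with a change of 0.40 ± 0.077 (limma adjusted p = 0.00941). Both genes were called in 16 of the 18 alternatives run.

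Mrpl14, the homologue of bacterial L14 at the face between the subunits, read 752 and 836 in cultures given siRNA 3488, 726 and 711 in those given siRNA 2600, against 679.8, 519.8 and 615 in control cultures. The control arrays spread widely here, but none reached the siRNA 3488 or the siRNA 2600 arrays. Its change was 0.40 ± 0.12 with siRNA 3488 (limma adjusted p = 0.0433). Mrpl20, whose bacterial homologue acts early in large-subunit assembly, read 3831 and 4110.3 under siRNA 3488, 3097 and 3977 under siRNA 2600, against 3009, 3184 and 3133 under the scrambled siRNA. It changed by 0.35 ± 0.095 with siRNA 3488 (limma adjusted p = 0.0335), and siRNA 2600 replicate 1 lay among the control arrays.

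Mrpl13, the homologue of bacterial L13, had the highest mean log2 signal of all member probe sets, 12.6. It read 6629 and 7173 in cultures given siRNA 3488, 6411 and 6316 in those given siRNA 2600, against 5436, 5701 and 5478 in control cultures. All 4 siRNA arrays lay above all 3 control arrays. Its change was 0.32 ± 0.061 with siRNA 3488 (limma adjusted p = 0.00964) and 0.20 ± 0.061 with siRNA 2600 (limma adjusted p = 0.152). Mrpl12, which forms the stalk that contacts translation factors, read 1193 and 1238 under siRNA 3488, 1105 and 1125 under siRNA 2600, against 975, 1049.9 and 1047 under the scrambled siRNA. All 4 siRNA arrays again lay above the control, and its change of 0.25 with siRNA 3488 had the highest adjusted p of the 18 calls (0.0453 by limma). The remaining large-subunit rises were Mrpl17 (0.31) and Mrpl22 (0.27), homologues of bacterial L17 and of L22, which lines the exit tunnel; these 2 lie outside the naming rule and are given so that every call is named.

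In the small subunit, Mrps21, the homologue of bacterial S21, had the largest called rise. It read 2705 and 3329.6 in cultures given siRNA 3488, 2611 and 2908 in those given siRNA 2600, against 2291, 2208 and 2517 in control cultures, and all 4 siRNA arrays were above the control arrays. The change with siRNA 3488 was 0.36 ± 0.097 (limma adjusted p = 0.0328). Mrps16, in which human mutations cause a respiratory-chain disease, read 2408 and 2793 under siRNA 3488, 2390.2 and 2607 under siRNA 2600, against 2044, 2233 and 2137 under the scrambled siRNA and changed by 0.28 ± 0.081 with siRNA 3488 (limma adjusted p = 0.0425). Its 4 siRNA arrays too lay above the control.

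Mrps7, which organizes the head of the small subunit, behaved otherwise. It read 1759 and 1904 under siRNA 3488, 1369 and 1562 under siRNA 2600, against 1495, 1519 and 1522 under the scrambled siRNA. Both siRNA 3488 arrays stood above all others, while the siRNA 2600 arrays lay on either side of the control arrays. It changed by 0.28 ± 0.077 with siRNA 3488 (limma adjusted p = 0.0371) and by -0.048 with siRNA 2600. The difference between the siRNAs, 0.32, just missed the threshold (limma adjusted p = 0.0501). Mrps24, the homologue of bacterial S3, rose by 0.32 and Mrps26, a mitochondria-specific protein, by 0.26 with siRNA 3488. In both genes all 4 siRNA arrays lay above the control, and a dimmer probe set of each was not tested.

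**Figure D2:**
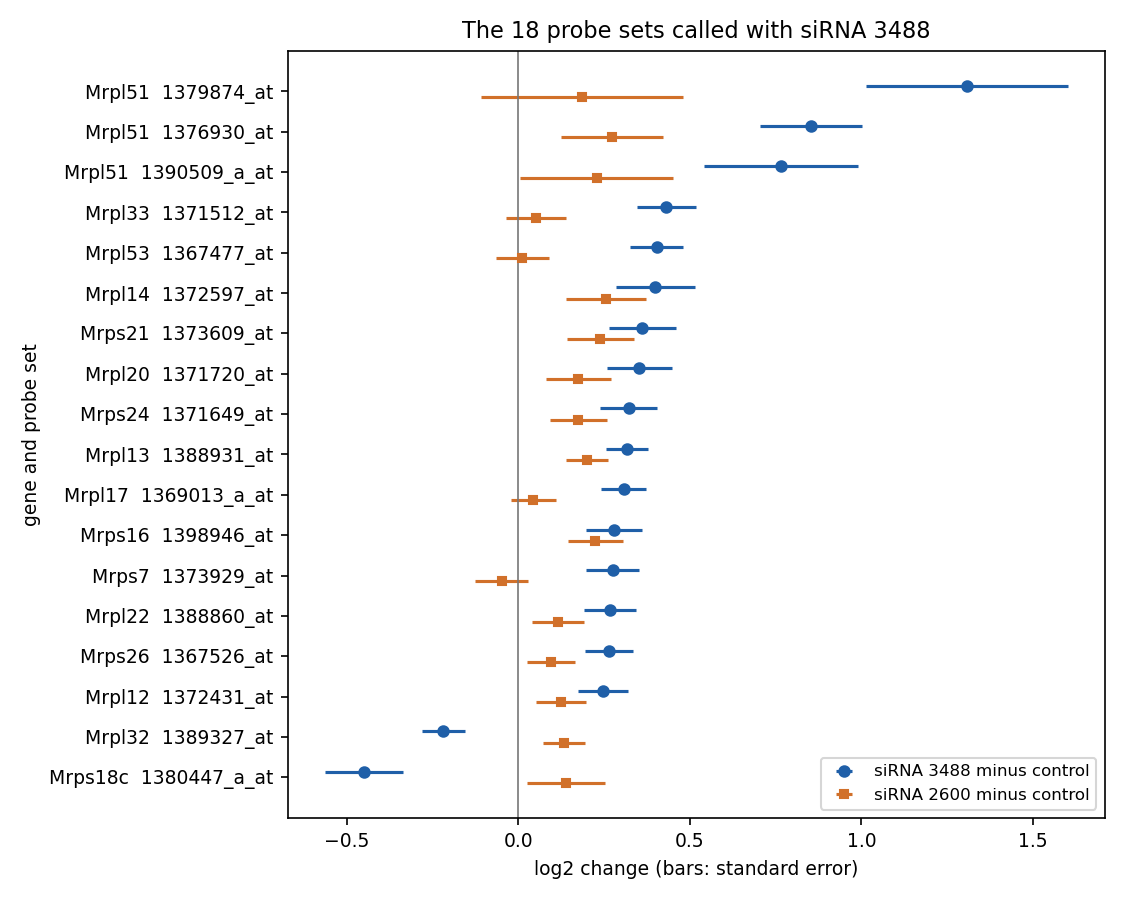
Log2 change against the control (x axis, bars are standard errors) of the 18 probe sets called with siRNA 3488 (y axis, gene and probe set), with siRNA 3488 as blue circles and siRNA 2600 as orange squares. The siRNA 3488 changes run from -0.45 to 1.31, and the siRNA 2600 changes of the 16 rises run from -0.048 to 0.27.

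The 2 falls were in members with bacterial homologues. Mrps18c, a homologue of bacterial S18, read 405 and 471 in cultures given siRNA 3488, 661 and 653 in those given siRNA 2600, against 582, 667 and 547 in control cultures at probe set 1380447_a_at. Both siRNA 3488 arrays lay below every other array, with a change of -0.45 ± 0.11 (limma adjusted p = 0.0255). Mrpl32, which in yeast and mouse is matured by the m-AAA protease before it joins the ribosome, read 1734 and 1799.8 under siRNA 3488, 2263 and 2243 under siRNA 2600, against 2081, 2079.6 and 2006 under the scrambled siRNA. Its change was -0.22 ± 0.062 (limma adjusted p = 0.039), with the siRNA 2600 arrays above the control and the siRNA 3488 arrays below it. Median centring kept both directions and neither call, with changes of -0.36 for Mrps18c and -0.12 for Mrpl32. Mrpl32 was called in 8 of the 18 alternatives run.

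Most of the core members given whatever their change were not called. Mrpl2, beside the peptide-bond centre, read 790.3 and 791 under siRNA 3488, 756 and 786 under siRNA 2600, against 780.1, 735 and 687 under the scrambled siRNA. Mrpl3, another core protein, read 1889 and 1862 under siRNA 3488, 1782 and 2098 under siRNA 2600, against 1740.3, 1856 and 2031 under the scrambled siRNA. Their changes with siRNA 3488 were 0.11 ± 0.085 and 0.0026 ± 0.089, neither of them called. Mrpl16 read 1311 and 1476 under siRNA 3488, 1703 and 1482 under siRNA 2600, against 1659, 1675 and 1456 under the scrambled siRNA, a change of -0.20 ± 0.094 that was not called. Mrpl23, at the end of the exit tunnel, read 1415 and 1726 under siRNA 3488, 1464 and 1538 under siRNA 2600, against 1358, 1386 and 1323 under the scrambled siRNA, a change of 0.21 ± 0.088 (limma adjusted p = 0.138). All 4 siRNA arrays of Mrpl23 lay above the control although it was not called. Mrpl44, which has the fold of an RNase III enzyme, read 755 and 872 under siRNA 3488, 971 and 862 under siRNA 2600, against 775, 815 and 775 under the scrambled siRNA. Mrpl45, near the tunnel exit, read 1234 and 1373 under siRNA 3488, 1341 and 1307 under siRNA 2600, against 1276, 1261 and 1225 under the scrambled siRNA. With siRNA 3488 they changed by 0.043 ± 0.093 and 0.054 ± 0.073, and in each gene both siRNA 2600 arrays lay above all control arrays.

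The same holds for the small-subunit core. Mrps5, whose bacterial homologue bears on decoding accuracy, read 666 and 523 under siRNA 3488, 588 and 536 under siRNA 2600, against 697, 587 and 518 under the scrambled siRNA, the groups overlapping throughout and the change with siRNA 3488 at -0.014. Mrps12, at the decoding centre, read 1613 and 1786 under siRNA 3488, 1606 and 1550.1 under siRNA 2600, against 1474, 1569 and 1481 under the scrambled siRNA, a change of 0.17 ± 0.072 with siRNA 3488 (limma adjusted p = 0.135). Both siRNA 3488 arrays of Mrps12 lay above the control. Mrps2, an outer protein of the small subunit, read 466 and 416 under siRNA 3488, 435 and 455 under siRNA 2600, against 507, 353 and 399 under the scrambled siRNA at its brightest probe set, a change of 0.086 with overlapping groups. Mrps22, a mitochondria-specific member mutated in human respiratory-chain disease, read 663 and 781 under siRNA 3488, 575 and 704 under siRNA 2600, against 657, 593 and 648 under the scrambled siRNA, a change of 0.19 ± 0.12 with siRNA 3488 that was not called. None of these 10 changes with siRNA 3488 was called by limma's test.

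**Figure D3:**
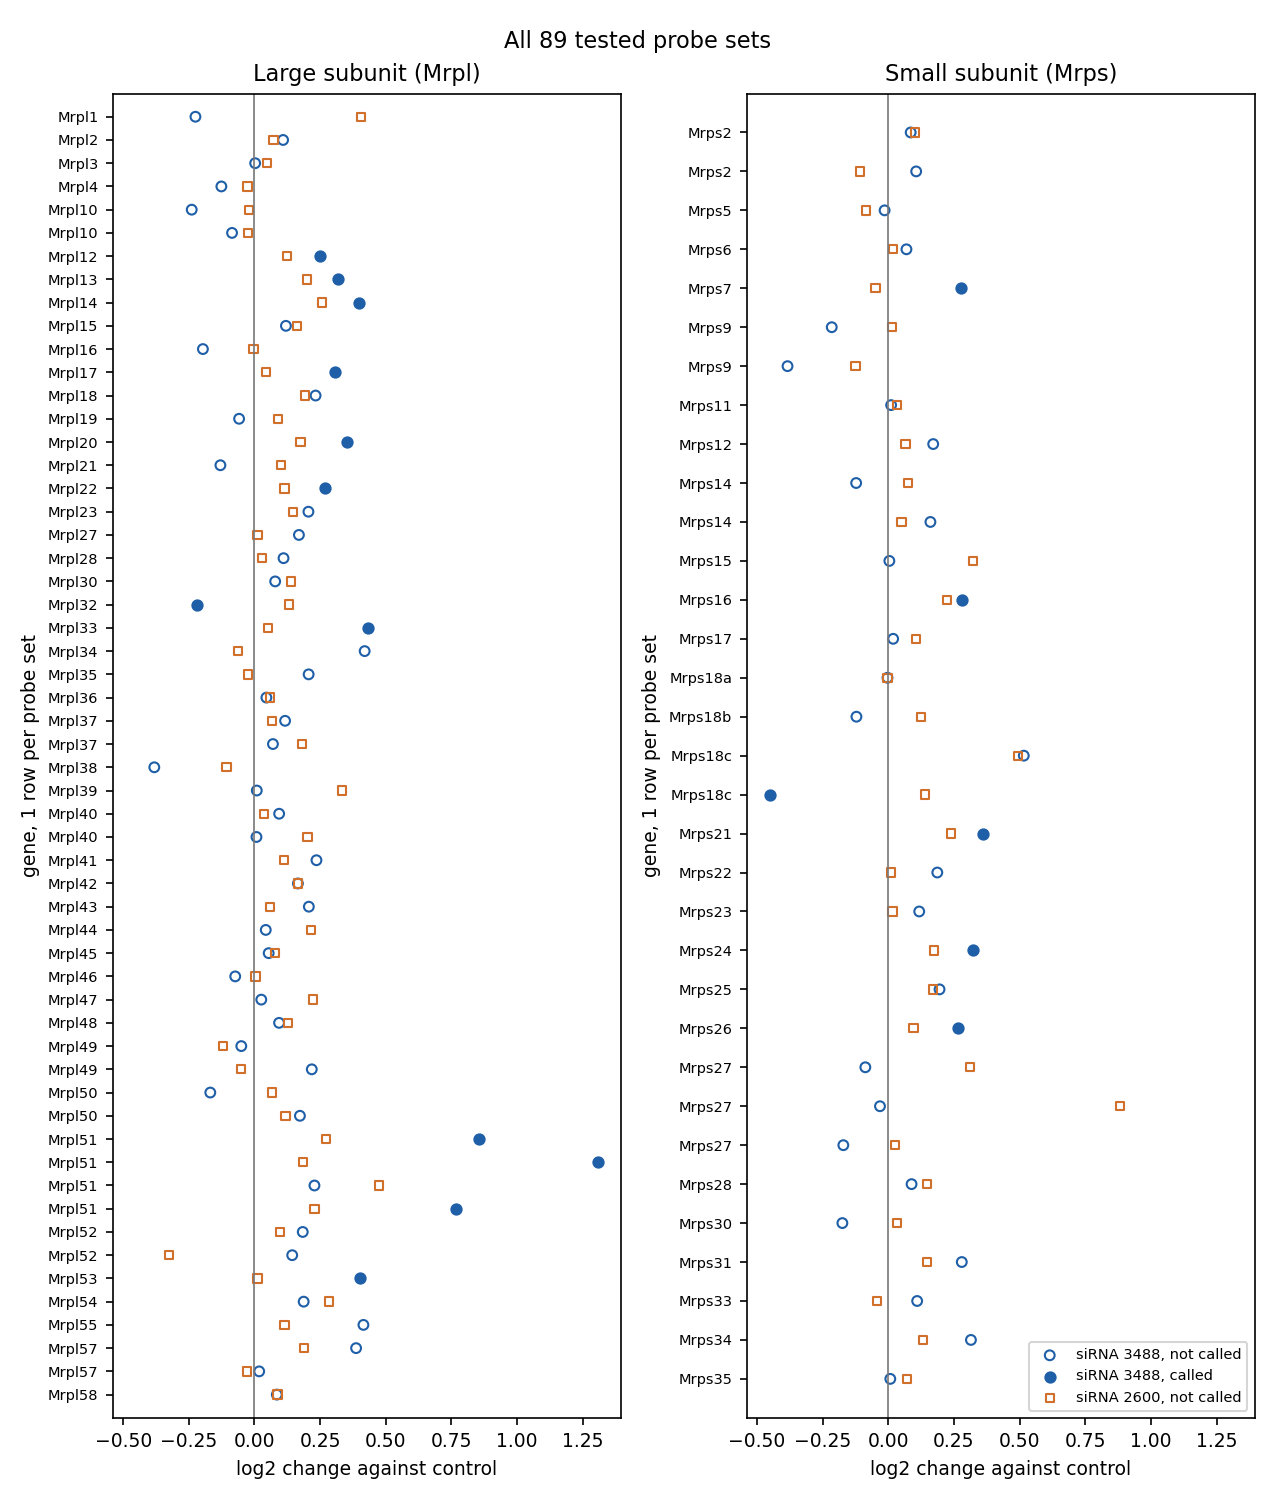
Log2 change against the control (x axis) of each of the 89 tested probe sets, 1 row each (y axis), large subunit left and small subunit right. Blue circles are siRNA 3488, filled where called, and open orange squares are siRNA 2600, none of them called; 85 of the 89 siRNA 3488 changes are under 0.5 in size.

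With siRNA 2600, no member was called, at a background of 1.03% of all probe sets in either direction. At an unadjusted p under 0.05 there were 14 of the 89 in limma's test, a share near the background of 15.2% of all. The median change was 0.096, against -0.022 over all probe sets, and 72 of the 89 lay above 0, against 45.5% of all. Both arrays lay above all control arrays for 31 of the 89, against 14.4% of all, and below them for 4, against 19.6% of all. This comparison and that of siRNA 3488 share the 3 control arrays, so their directions are not independent. The lowest adjusted p was that of Mrpl1, which shapes the flexible L1 stalk, with a change of 0.40 ± 0.086 (limma adjusted p = 0.0587). Median centring called 1 member with siRNA 2600, a rise.

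Both siRNAs together against the control also gave no call, at a background of 0.145% of all probe sets. At an unadjusted p under 0.05 there were 18 of the 89 in limma's test, a share near the background of 17.8% of all. The median change was 0.11, against -0.045 over all. All 4 siRNA arrays lay above all 3 control arrays for 17 of the 89, against 6.66% of all, and below them for 2, against 11% of all. Of the 17, 10 were large-subunit and 7 small-subunit probe sets. Besides the genes already given they include Mrpl18, Mrpl54 and Mrps25, named here after their values were seen. Mrpl18, the homologue of bacterial L18, read 3216 and 3537 under siRNA 3488, 3299 and 3266 under siRNA 2600, against 2909, 3016 and 2696 under the scrambled siRNA. Mrpl54, a mitochondria-specific protein, read 1480.3 and 1649 under siRNA 3488, 1743 and 1603 under siRNA 2600, against 1307, 1441 and 1372 under the scrambled siRNA. Mrps25, likewise mitochondria-specific, read 1576 and 1776 under siRNA 3488, 1659.8 and 1629.7 under siRNA 2600, against 1475, 1513 and 1399 under the scrambled siRNA. In these 3 the changes with both siRNAs were 0.21, 0.24 and 0.18, none of them called. The lowest adjusted p, 0.135, was that of Mrpl13, with a change of 0.26 ± 0.070. Without siRNA 2600 replicate 1, 8 members were called, all of them rises.

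The siRNAs were also set against each other. Of the 89, 2 probe sets (2.25%) were higher with siRNA 3488 than with siRNA 2600 and 3 (3.37%) were lower. The background was near, with 2.84% of all probe sets higher and 3.17% lower. The median difference was 0.037, against -0.025 over all. Mrpl1 differed most. It read 588 and 632 in cultures given siRNA 3488, 915 and 971 in those given siRNA 2600, against 743, 675 and 719.9 in control cultures. Neither siRNA overlapped the control, siRNA 3488 lying below it and siRNA 2600 above. The difference was -0.63 ± 0.095 (limma adjusted p = 0.0106). Mrps18c 1380447_a_at differed by -0.59 ± 0.12 and Mrpl32 by -0.35 ± 0.067 (limma adjusted p = 0.0279 and 0.0207). Mrpl53 and Mrpl33 were the 2 higher ones, by 0.39 ± 0.084 and 0.38 ± 0.095 (limma adjusted p = 0.0303 and 0.0449).

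This count moved with the arrays and with the fit. Without siRNA 2600 replicate 2 there were 12 calls. Without siRNA 3488 replicate 1 there were 3. Without siRNA 3488 replicate 2 or siRNA 2600 replicate 1 there was 1, and without control replicate 1 or 2 there were 2. Median centring gave 3 higher and 2 lower. A fit on the 4 arrays of these groups alone called none, with 17 members at an unadjusted p under 0.05 in limma's test. In the main fit 19 of the 89 and 4412 of all 18625 had such a p.

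Promoters of these 5 genes are shown because a probe set of each differed between the siRNAs. For Mrps18c this was 1380447_a_at alone, and its other tested probe set differed by 0.022 (limma adjusted p = 0.96). Each line gives the 250 bases before the annotated start in RefSeq's GRCr8 assembly, 5′ to 3′ along the gene:
Mrpl1, chr14:13663522-13663771, minus strand: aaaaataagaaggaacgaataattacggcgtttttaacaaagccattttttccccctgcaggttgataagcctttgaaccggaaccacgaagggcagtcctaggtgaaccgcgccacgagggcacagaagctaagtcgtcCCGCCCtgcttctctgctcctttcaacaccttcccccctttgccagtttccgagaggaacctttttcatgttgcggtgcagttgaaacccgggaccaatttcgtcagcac
Mrps18c, chr14:9122907-9123156, minus strand: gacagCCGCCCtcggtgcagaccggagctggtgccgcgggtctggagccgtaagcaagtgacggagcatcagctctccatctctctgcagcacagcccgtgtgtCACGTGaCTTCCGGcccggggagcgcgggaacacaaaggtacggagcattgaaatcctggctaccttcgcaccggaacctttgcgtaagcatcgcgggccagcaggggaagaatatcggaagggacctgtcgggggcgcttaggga
Mrpl32, chr17:55260401-55260650, plus strand: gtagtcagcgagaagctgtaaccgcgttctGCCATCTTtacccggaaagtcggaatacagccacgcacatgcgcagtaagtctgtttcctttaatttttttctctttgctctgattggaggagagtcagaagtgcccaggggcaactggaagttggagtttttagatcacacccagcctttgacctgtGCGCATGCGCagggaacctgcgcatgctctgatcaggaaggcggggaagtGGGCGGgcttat
Mrpl53, chr4:117172793-117173042, plus strand: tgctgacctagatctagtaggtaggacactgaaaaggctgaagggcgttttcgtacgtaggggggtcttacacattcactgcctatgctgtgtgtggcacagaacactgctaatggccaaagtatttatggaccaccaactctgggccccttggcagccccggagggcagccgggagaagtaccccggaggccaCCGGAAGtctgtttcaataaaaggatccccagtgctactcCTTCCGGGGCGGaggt
Mrpl33, chr6:30553988-30554237, minus strand: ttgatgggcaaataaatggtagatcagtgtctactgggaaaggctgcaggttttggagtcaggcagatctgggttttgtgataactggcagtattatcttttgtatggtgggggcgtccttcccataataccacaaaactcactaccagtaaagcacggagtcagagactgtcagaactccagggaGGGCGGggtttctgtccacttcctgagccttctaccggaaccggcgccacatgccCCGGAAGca
Capitals mark matches, on either strand, to motifs named for factors known to act on nuclear genes of mitochondrial proteins and for 2 common promoter elements. The motifs were GCGCATGCG (NRF1), CCGGAAG (GABP and other ETS factors), AAGATGGC (YY1), CACGTG (E-box) and GGGCGG (Sp1). The NRF1 letters are nearly their own reverse complement, so a match can be met on both strands at once, as in Mrpl32. In Mrpl53 an ETS match and the Sp1 match share a base.

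Promoter windows of 250 bases before to 50 after the start were found for 59 of the 73 genes, 61 windows in all. The ETS motif stood in 20 of the 61 (32.8%), against 8.75% of 33469 promoters of the same length, and the YY1 motif in 14 (23.0%), against 3.17%. The NRF1 motif stood in 5 (8.2%), against 1.52%. The Sp1 motif stood in 30 (49.2%), against 33.1%, and the E-box in 6 (9.8%), against 6.42%. Of these 5 genes, Mrpl53 held 2 ETS matches, Mrpl33 and Mrps18c 1 each, and Mrpl32 an NRF1 and a YY1 match. Mrpl1 held only an Sp1 match. A match is a run of letters and no sign of binding.

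Of the 73 genes, 55 had 1 probe set and 18 had more, and 13 had more than 1 that was tested. With siRNA 3488 the changes of a gene's probe sets had 1 sign in 9 of the 13 and both signs in 4. The highest and lowest change of a gene lay a median of 0.17 apart on the log2 scale, which is about the size of the changes themselves (median size 0.17). The widest distance was 1.08, in Mrpl51.

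Mrps18c was the clearest case of opposite signs. While 1380447_a_at fell, 1379378_at read 269.6 and 302 in cultures given siRNA 3488, 267 and 297 in those given siRNA 2600, against 184, 181 and 238 in control cultures. Here all 4 siRNA arrays lay above the control, with a change of 0.52 ± 0.16 for siRNA 3488 (limma adjusted p = 0.0567) and 0.49 ± 0.16 for siRNA 2600 (limma adjusted p = 0.185). Its remaining probe set, 1382418_at, was under the level tested. The array therefore gives no single direction for Mrps18c.

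The other genes with both signs were Mrpl49, Mrpl50 and Mrps14. Mrpl49 changed by 0.22 and -0.050, Mrpl50 by 0.17 and -0.17, and Mrps14 by 0.16 and -0.12 with siRNA 3488, the brighter probe set first. None of these 6 changes was called. Mrps9, the homologue of bacterial S9, had both probe sets below 0, at -0.38 and -0.22. The brighter one, 1396142_at, read 622 and 837 under siRNA 3488, 857 and 869.9 under siRNA 2600, against 956, 975 and 894 under the scrambled siRNA, both siRNA 3488 arrays below all others, and missed the call (limma adjusted p = 0.05). Mrpl10, which anchors the stalk, likewise had -0.24 and -0.085, neither called.

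The remaining genes with several tested probe sets had no called change. Mrpl37 had changes of 0.070 and 0.12 with siRNA 3488, Mrpl40 of 0.0076 and 0.094, and Mrps2 of 0.086 and 0.11. Mrpl57 had 0.39 and 0.018, the brighter probe set being the one further from 0, and Mrpl52 0.18 and 0.14. With siRNA 2600 the Mrpl52 probe sets parted, at 0.098 and -0.33. Mrps27, an RNA-binding member, had -0.087, -0.17 and -0.031 with siRNA 3488, and 0.31, 0.025 and 0.88 with siRNA 2600. The last of these, 1386471_at, was dim and read 57.5 and 121 under siRNA 3488, 179.9 and 137 under siRNA 2600, against 117, 155 and 34 under the scrambled siRNA. Its control arrays alone spanned 34.0 to 155, and it was not called in either comparison.

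**Figure D4:**
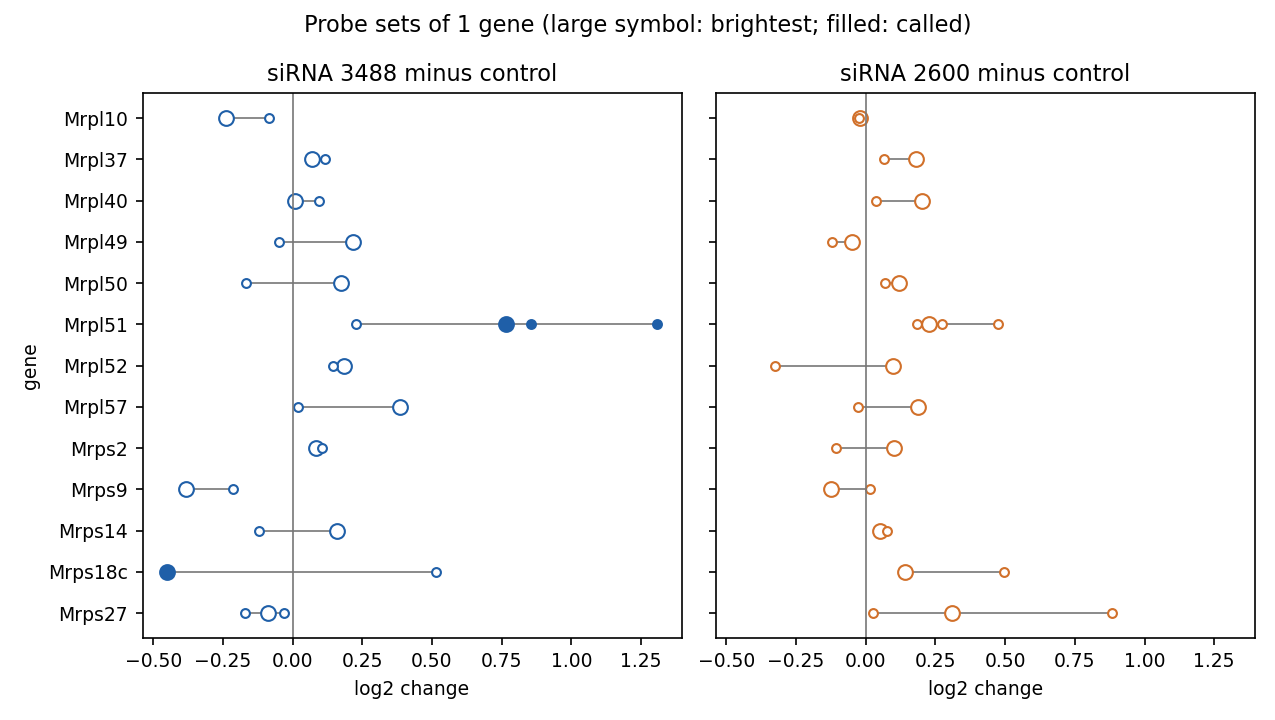
Log2 change (x axis) of every tested probe set of the 13 genes with more than 1 (y axis), for siRNA 3488 left and siRNA 2600 right, each against the control. Large symbols mark the brightest probe set of a gene and filled symbols a called change; Mrpl51 and Mrps18c spread widest with siRNA 3488, and Mrps27 with siRNA 2600.

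The 8 probe sets not tested were dim, with mean log2 signals of 2.76 to 6.07. They belong to Mrpl12, Mrpl37, Mrps2, Mrps15, Mrps18c, Mrps22, Mrps24 and Mrps26. The lowest of all 97 was Mrps26 1375166_at, which read 10.9 and 9.63 under siRNA 3488, 3 and 16 under siRNA 2600, against 4.51, 4.03 and 7.02 under the scrambled siRNA. The other Mrps26 probe set, among the 18 calls, read 1629 and 1798 under siRNA 3488, 1521 and 1523 under siRNA 2600, against 1435, 1419 and 1420.3 under the scrambled siRNA.

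Changes with siRNA 3488 also depended on signal across the whole array. With all tested probe sets cut into deciles of mean signal, the brightest decile is number 10. In it the median change was 0.15, and 37.4% rose. The 9 members in decile 10 had a median of 0.31, and 6 of them rose. Most members lie just under it. Deciles 7, 8 and 9 hold 17, 20 and 24 members, with medians of 0.085, 0.027 and 0.19. Over all probe sets the medians of the same deciles were -0.075, -0.062 and -0.040. In decile 6, 1 of the 8 members rose, in decile 7 1 of 17 and in decile 8 2 of 20, against 4.35%, 4.62% and 5.9% of all probe sets there. In decile 9, 6 of the 24 members rose, against 8.43% of all probe sets there. With siRNA 2600 the members of decile 10 had a median of 0.18, against 0.049 over all.

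**Figure D5:**
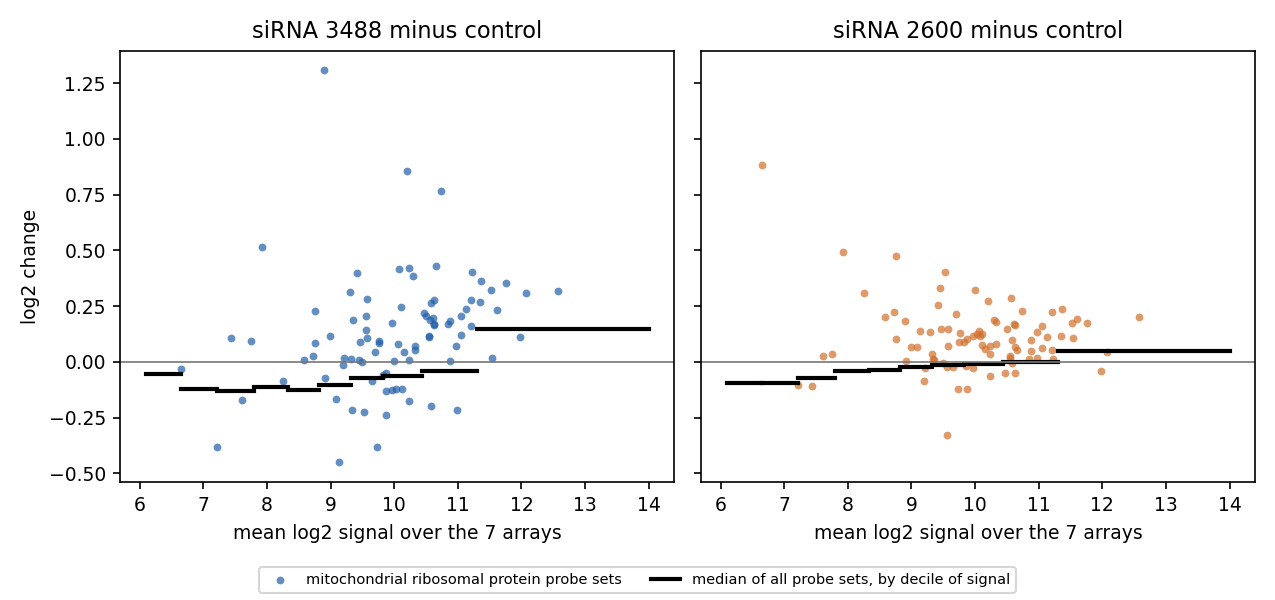
Log2 change against the control (y axis) by mean log2 signal over the 7 arrays (x axis) for the 89 member probe sets (points), with siRNA 3488 left and siRNA 2600 right. Black bars are medians over all probe sets in each decile of signal; with siRNA 3488 they run from -0.13 to -0.040 in deciles 1 to 9 and reach 0.15 in decile 10.

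Other genes of the pathway were taken from lists of named genes and counted in the same fits with siRNA 3488. In these fits 6.89% of all probe sets tested rose and 8.74% fell. Of 6 probe sets listed as mitochondrial ribosomal proteins under other symbols, 2 rose and 0 fell. They were Chchd1 (0.32, limma adjusted p = 0.0194) and Aurkaip1 (0.25, limma adjusted p = 0.0262), both small-subunit proteins. Oxa1l, counted on this list although it inserts new proteins into the inner membrane, changed by 0.15 and was not called. Of 27 probe sets of ribosome assembly factors 1 rose, Ptcd1 (0.41), and 0 fell. Ngrn changed by -0.22 and Mterf3 by 0.26, neither called.

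Mitochondrial translation factors had 2 rises (10%) and 4 falls (20%) among 20 probe sets, against 6.89% and 8.74% of all. The initiation factor Mtif2 fell by 0.78 on the log2 scale (limma adjusted p = 0.00376), with a mean signal of 862 with siRNA 3488 against 1482 with the control. The recycling factor Mrrf fell by 0.90 at 1 probe set (limma adjusted p = 0.0136), the other at -0.17 and not called. Slirp, which stabilizes mitochondrial mRNAs, rose by 0.37 (limma adjusted p = 0.0301). Of 24 probe sets of mitochondrial aminoacyl-tRNA synthetases 1 rose and 1 fell (4.17% each), under the shares of all probe sets. The rise was 1 of 2 probe sets of Gars1, which also serves the cytosol (0.29, the other 0.25 and not called), and Nars2 fell by 0.99. Among 14 probe sets for transcription and upkeep of mitochondrial DNA none was called, with Top1mt at -0.47, Polg at 0.27 and 0.10 and Mterf1 at -0.11.

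Of 10 probe sets of regulators of mitochondrial gene expression 3 fell and 0 rose with siRNA 3488. Yy1 fell by 0.34 (limma adjusted p = 0.0118), Gabpa, the DNA-binding part of GABP, by 0.41 (limma adjusted p = 0.0145) and 1 probe set of Nrf1 by 0.67 (limma adjusted p = 0.0391). The other Nrf1 probe set stood at -0.24 and the other tested Yy1 probe set at -0.098, neither called. With median centring none of the 10 was called, and without siRNA 3488 replicate 2 none was either.

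Complex I subunits, taken by Nduf symbol and all nuclear-encoded, had 16 rises and 0 falls among 36 probe sets, with a median of 0.24. Ndufa4, counted here by its name although it is now placed in complex IV, rose by 0.58, Ndufa12 by 0.52 and Ndufa7 by 0.40 at 1 probe set, the other at -0.17 and not called. Cytosolic ribosomal proteins had 41 rises and 0 falls among 44 probe sets, with a median of 0.46. Rpl23a rose by 0.57, Rpl3 by 0.61 and 0.55 at its 2 probe sets and Rpl18 by 0.54. The cytosolic list depended on the array scaling, with 4 rises and a median of 0.0030 after quantile normalization and 9 and 0.13 after cyclic loess. The members' median moved from 0.11 to 0.15 under both of these scalings. Their calls moved from 18 to 10 and 12, with 8 and 9 of the 18 among them. Without siRNA 3488 replicate 2 the cytosolic list had 6 rises and complex I 3. With siRNA 2600 none of these lists had a call apart from 1 fall in complex I, in Ndufa5 (-0.55).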

How the data were processed

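RNA of 7 cultures was measured, 1 array each, and the sample titles gave the groups. The deposited table holds the intensity of every probe set on each array as 1 linear signal, in arbitrary units. The submitters' processing notes name GCOS 1.4 for this step, and no source used here gives its background, scaling or detection settings. Per array, the mean without the lowest and highest 2% was 500, so the values were already scaled. The number of arrays limits the precision.

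Values below 1 were raised to 1 before taking log2. Of 31099 probe sets, 57 controls were left out and the upper 60% by mean log2 signal (6.09 or more) were tested with limma 3.58.1 in R 4.3.3 (lmFit, then eBayes with its intensity trend on), and p was adjusted by Benjamini-Hochberg. Each siRNA against the control, and siRNA 3488 against siRNA 2600, came from 1 fit of 3 groups. Both siRNAs together were a fit of 2 groups. Scripts were tested on simulated data. Python 3.11.15, pandas 2.3.3 and matplotlib 3.10.9 made counts and figures.

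Symbols came from the platform's annotation. All 97 members were found by Entrez identifier in GRCr8, where 0 symbols changed. The members, gene lists, motifs and tests were chosen with earlier results of these data known. Named are the 8 largest rises and falls called in each comparison, every probe set of genes with several, a set of core members, the highest and lowest member by signal, Adamts16 and 3 members of each other list by lowest p. Alternatives were other scalings, filters, offsets and variance models, 1 probe set per gene, a replicate block, a fit on only the arrays compared, and dropping every array once.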

Additional observations from a re-analysis of the deposited data

Results flagged for a closer look

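Probe sets of 5 members are given here because the direct test of siRNA 3488 against siRNA 2600 called them. They are 5.62% of the 89 tested, near the 6.01% called among all probe sets. Mrpl53 differed by 0.39 on the log2 scale (change of 0.40 with siRNA 3488 and 0.01 with siRNA 2600, limma adjusted p = 0.0303). Mrpl33 differed by 0.38 (0.43 and 0.05, limma adjusted p = 0.0449). Mrps18c 1380447_a_at differed by -0.59 (-0.45 and 0.14, limma adjusted p = 0.0279). Mrpl1 differed by -0.63 (-0.22 and 0.40, limma adjusted p = 0.0106). Mrpl32 differed by -0.35 (-0.22 and 0.13, limma adjusted p = 0.0207). The groups of 2 and 3 arrays were too small for a test of single arrays that stand apart.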

How the results depend on the processing

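With siRNA 3488 the count of 18 called members moved to 10 under quantile normalization (8 of them among the 18), to 8 with no filter and to 0 without the intensity trend in the spread (27 at an unadjusted p under 0.05 in limma's test), and ranged from 1 to 24 when arrays were left out in turn. The median change of 0.11 with siRNA 3488 moved to 0.1471 under quantile normalization, 0.1549 under cyclic loess and 0.20 under median centring. It ranged from 0.072 to 0.17 without single arrays. With siRNA 2600 the count of 0 moved to 1 under median centring and 1 with 1 probe set per gene, and the median to 0.18 under median centring. With both siRNAs the count of 0 moved to 2 as the mean of both effects in the fit of 3 groups and ranged from 0 to 8 without single arrays, and the median moved to 0.14 under cyclic loess and 0.20 under median centring. For siRNA 3488 against siRNA 2600 the count of 5 moved to 3 under quantile normalization, 3 under cyclic loess and 3 with no filter. Without the intensity trend it moved to 0, with 15 at an unadjusted p under 0.05 in limma's test. In the main fit 19 of the 89 and 4412 of all 18625 had such a p. The count moved to 9 with the upper 40% of probe sets, 9 with 1 probe set per gene and 0 on the 4 arrays alone. It ranged from 1 to 12 without single arrays, and its median from -0.029 to 0.082. Deviations of same-numbered arrays from their group means had r from -0.048 to 0.16. In a group of 2 arrays these deviations mirror each other. Whether the numbers pair the cultures could therefore not be decided. With a replicate block the count was 17 with siRNA 3488, 0 with siRNA 2600, 0 with both and 10 for siRNA 3488 against siRNA 2600. The direction turned for uncalled members near 0 with siRNA 3488: Mrpl3 under cyclic loess (-0.0097; -0.050 to 0.061 without single arrays), Mrpl44 (-0.061 to 0.15), Mrpl45 (-0.023 to 0.13) and Mrps2 (-0.030 to 0.23) without single arrays, and Mrps5 under quantile normalization (0.068), cyclic loess (0.093), median centring (0.081) and without single arrays (-0.19 to 0.16). Of 502 values of named probe sets under alternatives, 371 kept direction and side of the threshold, 118 lost the call and 1, Mrpl23 without siRNA 3488 replicate 1, gained it. The cause of these moves was not tested.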
